A study of Homo sapiens with 38 samples.

Results

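The genes described here are 8 long noncoding RNA genes that carry small nucleolar RNAs (snoRNAs) in their introns: GAS5, SNHG1, SNHG3, SNHG5, SNHG6, SNHG7, SNHG8 and SNHG12. They were picked by symbol from the 25504 uniquely named genes of the deposited expression table, and the rule uses no measured value. The list was nevertheless chosen with earlier results of these data known. All 8 were among the 10865 genes with a mean of at least 1 FPKM (fragments scaled to exon length and to the mapped total of the library) over the libraries, the genes called expressed below. RNA was sequenced from RKO, a human colorectal cancer cell line, with 1 library in each of 8 conditions. Cells were kept for 30 days or for 4 days in 0.1% DMSO alone or with 2 μM of NCD38, NCD38-β2P4 or NCD38-β2PIPP. Medium and compound were renewed every 5 days, a time that cells collected on day 4 did not reach. Renewal thus goes with the day of collection. The study's methods print millimolar in place of micromolar for day 4. NCD38 inhibits the histone demethylase LSD1, which removes methyl groups from lysine 4 of histone H3. Both conjugates carry NCD38 joined through a β-alanine dipeptide to a polyamide that lies in the minor groove of DNA. The polyamide of NCD38-β2P4 is a run of pyrrole units and prefers stretches of A and T. In that of NCD38-β2PIPP, imidazole replaces the second pyrrole, and a CG between A/T pairs is preferred. DMSO alone was the control on each day. No library repeats a condition, and nothing says whether the cultures of different conditions were started separately.

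snoRNAs guide the chemical modification of ribosomal RNA, the C/D class (SNORD) ribose methylation and the H/ACA class (SNORA) pseudouridylation. In most human host genes the snoRNA is cut out of a spliced intron, and the joined exons are left as a separate RNA. Such host exons often hold no conserved reading frame, are engaged by ribosomes and are then removed by nonsense-mediated decay (NMD), so their level depends on transcription and on decay. Many hosts start transcription in a stretch of pyrimidines, like the genes of ribosomal proteins. GAS5 was named for its accumulation in growth-arrested cells. The FPKM values described here measure the spliced, polyadenylated host RNA and not the snoRNAs.

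The starts of the genes are shown because 7 of the 8 RNAs had a higher level on day 30 than on day 4 and because both polyamides have a preferred sequence. Windows were taken from the RefSeq promoter table, on GRCh38.p14, for 7 of the 8 genes. SNHG6 was left out of this search, so nothing is said here about its start. Each line runs 5′ to 3′ from 60 bases before the annotated start to 50 bases after it. The windows are chr6:85678684-85678793 on the minus strand for SNHG5, chr9:136728135-136728244 on the minus strand for SNHG7, chr4:118278702-118278811 on the plus strand for SNHG8, chr1:28581824-28581933 on the minus strand for SNHG12, chr1:173868996-173869105 on the minus strand for GAS5, chr11:62855836-62855945 on the minus strand for SNHG1 and chr1:28505883-28505992 on the plus strand for SNHG3. Capitals mark TATAA on the sense strand between 45 and 16 bases before the start, and runs of at least 6 C or T that begin with C and lie within 30 bases of the start.
SNHG5: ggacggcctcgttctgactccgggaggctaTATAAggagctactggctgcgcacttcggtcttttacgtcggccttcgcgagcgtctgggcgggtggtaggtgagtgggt
SNHG7: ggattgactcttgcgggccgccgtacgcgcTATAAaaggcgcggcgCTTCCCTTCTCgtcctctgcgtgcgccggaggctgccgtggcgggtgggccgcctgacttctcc
SNHG8: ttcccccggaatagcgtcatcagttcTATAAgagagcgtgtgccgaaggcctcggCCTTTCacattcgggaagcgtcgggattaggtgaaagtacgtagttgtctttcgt
SNHG12: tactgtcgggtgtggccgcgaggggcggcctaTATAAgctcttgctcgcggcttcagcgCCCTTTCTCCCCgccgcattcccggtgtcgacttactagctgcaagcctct
GAS5: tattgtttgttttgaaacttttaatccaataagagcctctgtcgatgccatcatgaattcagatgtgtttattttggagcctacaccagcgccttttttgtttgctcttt
SNHG1: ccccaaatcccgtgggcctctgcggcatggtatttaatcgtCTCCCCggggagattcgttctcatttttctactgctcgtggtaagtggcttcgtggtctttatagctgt
SNHG3: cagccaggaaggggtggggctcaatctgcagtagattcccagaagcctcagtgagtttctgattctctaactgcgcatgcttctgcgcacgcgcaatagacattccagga

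The TATAA letters stood at that distance in 4 of the 7 genes, SNHG5, SNHG7, SNHG8 and SNHG12. Of all 35116 promoter windows in the table, 4.09% held them there. A pyrimidine run within 30 bases of the start was found in SNHG1, SNHG7, SNHG8 and SNHG12, and in 40.4% of all windows. Over the whole window of 250 bases before to 50 after the start, 6 consecutive A or T bases, the letters preferred by NCD38-β2P4, occurred in 5 of the 7 genes and in 61.2% of all windows. A CG with 2 bases of A or T on each side, as preferred by NCD38-β2PIPP, occurred in SNHG1, SNHG3 and SNHG8 and in 15.9% of all windows. Both of these patterns read the same on either strand. These matches describe letters and not occupied sites. A single annotated start was searched per gene, although GENCODE lists 91 isoforms for GAS5, so the absence of a run holds for that start alone.

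The host RNAs covered a wide range of levels. On day 30, mean FPKM over the 4 libraries fell in the order GAS5 (3018 ± 556, SD), SNHG5 (1590 ± 201), SNHG6 (1022 ± 85.7), SNHG8 (727 ± 137), SNHG7 (502 ± 55.8), SNHG1 (148 ± 6.11), SNHG3 (61.0 ± 12.0) and SNHG12 (35.2 ± 4.18). Among these neighbours, the ranges of SNHG8 and SNHG7 alone overlapped. On day 4 the order was GAS5 (910 ± 219), SNHG5 (383 ± 103), SNHG6 (264 ± 54.6), SNHG7 (218 ± 9.69), SNHG8 (101 ± 18.9), SNHG3 (51.1 ± 7.40), SNHG1 (29.8 ± 9.16) and SNHG12 (6.12 ± 2.03). There, SNHG6 overlapped both SNHG5 and SNHG7 in range. These SDs span 4 treatments and are not replicate errors. SNHG8 and SNHG7, and SNHG1 and SNHG3, thus changed places between the days. Together the 8 genes made up 0.760% to 0.940% of the FPKM sum of a library on day 30 and 0.195% to 0.310% on day 4. GAS5 alone gave 38.4% to 52.2% of the FPKM sum of the 8 genes in each library.

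**Figure D1:**
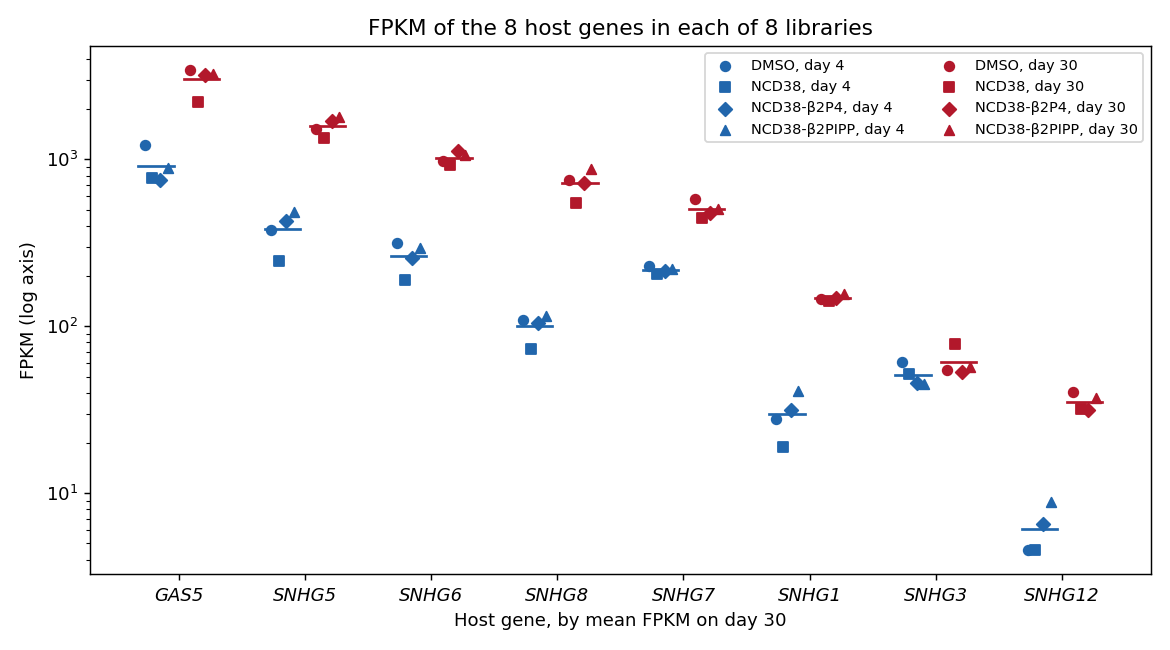
FPKM of each host gene (log axis) in the 8 libraries, with red symbols for day 30, blue for day 4, 1 symbol shape per treatment and a bar for the mean of a day. All red symbols lie above all blue ones for 7 genes, while the 2 days overlap for SNHG3.

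The first comparison asked whether the hosts differed between cells collected on day 30 and on day 4. It was made with limma over the 8 libraries on log2(FPKM + 1), with treatment as a term, and p-values were adjusted over all expressed genes. The spread it uses is how far the treatments disagree on the day difference. Of the 8 hosts, 7 had a higher level on day 30 past an adjusted p of 0.05, each by at least 2-fold, and none a lower one. Of all expressed genes, 30.2% passed the test with a higher level on day 30, 31.7% with a lower level and 61.9% in either direction. A higher level of at least 2-fold past the test was found in 22.3%. In the same 7 hosts every library of day 30 lay above every library of day 4, as it did in 29.5% of expressed genes. The day of collection and the sequencing run cannot be told apart, since the series names 2 sequencers without assigning them. In bulk RNA, a change in the mix of cells and in the RNA per cell cannot be told apart either.

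SNHG8, the host of SNORA24, had the largest difference of the 8. It was at 756 FPKM with DMSO, 548 with NCD38, 725 under NCD38-β2P4 and 878 under NCD38-β2PIPP on day 30. On day 4 the values were 109, 73.3, 105 and 116 FPKM in the same order. The lowest value was that of NCD38 on both days, and the days lay far apart. The difference was 2.84 on the log2 scale (SE 0.092, adjusted p = 0.00016), a 7.15-fold higher level. Within the single treatments it ran from 2.77 to 2.91, the narrowest range of the 8 genes.

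SNHG12 carries SNORA44, SNORA61, SNORA16A and SNORD99 and was the lowest of the hosts in level. Its day 30 values were 40.2 FPKM with DMSO, 31.9 with NCD38, 31.6 under NCD38-β2P4 and 36.9 under NCD38-β2PIPP. Those of day 4 were 4.56, 4.57, 6.51 and 8.83 FPKM. Both conjugates were above DMSO and NCD38 on day 4, and on day 30 DMSO was highest. The log2 difference between the days was 2.38 (SE 0.195, adjusted p = 0.000587), and within treatments it ran from 1.95 with NCD38-β2PIPP to 2.89 with DMSO. Added to values this small, the pseudocount of 1 FPKM makes the fold of SNHG12 smaller than that of FPKM itself, whose means differed 5.75-fold.

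SNHG1 holds a series of C/D snoRNAs, from SNORD22 to SNORD31. On day 30 it was nearly level over the treatments, at 145 FPKM with DMSO, 142 with NCD38, 148 under NCD38-β2P4 and 156 under NCD38-β2PIPP. On day 4 it was at 27.9, 18.9, 31.5 and 41.0 FPKM. The treatments thus spread more widely on day 4, with a coefficient of variation of 30.7% against 4.13% on day 30. The day difference was 2.32 (SE 0.172, adjusted p = 0.000511).

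SNHG5 and SNHG6 followed with similar differences. SNHG5, whose introns encode SNORD50A and SNORD50B, was at 1516 FPKM with DMSO, 1345 with NCD38, 1703 under NCD38-β2P4 and 1797 under NCD38-β2PIPP on day 30. Its day 4 values were 375, 245, 425 and 485 FPKM. In both sets NCD38 was lowest and NCD38-β2PIPP highest. The difference between the days was 2.09 (SE 0.130, adjusted p = 0.000412). SNHG6, the host of SNORD87, was at 980, 925, 1117 and 1066 FPKM on day 30 and at 314, 191, 256 and 296 FPKM on day 4, in the order DMSO, NCD38, NCD38-β2P4 and NCD38-β2PIPP. NCD38 was again lowest on both days. Its difference was 1.97 (SE 0.137, adjusted p = 0.000476).

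GAS5, the most abundant host, carries 10 listed C/D snoRNAs. It was at 3432 FPKM with DMSO, 2197 with NCD38, 3214 under NCD38-β2P4 and 3229 under NCD38-β2PIPP on day 30. On day 4 DMSO was at 1226 FPKM, NCD38 at 772, NCD38-β2P4 at 753 and NCD38-β2PIPP at 889. DMSO was highest on both days, and NCD38 was lowest on day 30 but not on day 4. The day difference of GAS5 was 1.74 (SE 0.145, adjusted p = 0.000608).

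SNHG7, which holds SNORA17 and SNORA43, had the smallest difference among the 7. Day 30 gave 578 FPKM with DMSO, 448 with NCD38, 477 under NCD38-β2P4 and 505 under NCD38-β2PIPP. Day 4 gave 229, 207, 213 and 221 FPKM, the tightest group of any of the genes on that day, with a coefficient of variation of 4.45%. Its difference was 1.20 (SE 0.095, adjusted p = 0.000558), a 2.29-fold higher level.

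SNHG3 was the exception. It carries the H/ACA snoRNAs SNORA73A and SNORA73B, which take part in cutting the ribosomal RNA precursor. The values of day 30 were 54.6 FPKM with DMSO, 78.7 with NCD38, 53.3 under NCD38-β2P4 and 57.2 under NCD38-β2PIPP. Those of day 4 were 61.4, 51.6, 46.0 and 45.4 FPKM. The days overlapped, and with DMSO the day 4 library was the higher one. Its log2 difference was 0.24 (95% interval -0.13 to 0.62, adjusted p = 0.21). SNHG3 lies on the same strand as RCC1, a protein-coding gene whose annotated span contains it. RCC1 was at 53.9 to 62.3 FPKM on day 30 and at 74.2 to 86.7 FPKM on day 4. How the counting split reads between them is not given in the sources used here. The same holds for SNHG5. It lies almost wholly within the span of a protein-coding gene without a symbol on its strand, at chr6:86214494-86388451 on GRCh37. No level was matched to that gene.

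The median day difference was 2.03 over the 8 hosts and -0.02 over all expressed genes. Of 20 other long noncoding hosts listed, 9 were matched to a name in the table and all 9 were expressed. Of these, 4 rose and 2 fell, with a median of 0.25, and both falls were lost with the GC trend described below subtracted. Among them, SNHG9 was at 208 ± 34.8 FPKM on day 30 and 65.4 ± 3.88 on day 4 (SD over 4 treatments), a log2 difference of 1.64 (SE 0.114, adjusted p = 0.000472). EPB41L4A-AS1 was 1.56 higher on day 30 (SE 0.129, adjusted p = 0.000594). LINC00338, the table's name for SNHG20, was 0.66 lower on this scale, with a log2 difference of -0.66 (SE 0.184, adjusted p = 0.0243) and a mean of 1.65 FPKM on day 30. SNHG11 had a difference of -0.43 (SE 0.137, adjusted p = 0.0376).

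Protein-coding genes that carry snoRNAs, many of them genes of ribosomal proteins, included 33 expressed members. Of these, 15 rose and 3 fell on day 30, with a median of 0.27. TAF1D, a subunit of the factor that selects ribosomal RNA promoters, was at 53.8 ± 4.27 FPKM on day 30 and 2.65 ± 1.26 on day 4, a difference of 3.98 (SE 0.231, adjusted p = 0.000399). RPL17, a protein of the large ribosomal subunit, rose by 2.96 (SE 0.256, adjusted p = 0.000654). The heat shock chaperone gene HSPA8 fell by 1.70 (SE 0.289, adjusted p = 0.00443), and the elongation factor gene EEF2 fell by 1.33 on the log2 scale (SE 0.151, adjusted p = 0.00123).

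All 10 listed factors of NMD were expressed, of which 3 rose and 5 fell, with a median of -0.77. UPF3B rose by 2.56 (SE 0.282, adjusted p = 0.00111) and UPF2 by 2.14 (SE 0.320, adjusted p = 0.00281), from means of 0.629 and 1.26 FPKM on day 4. SMG5, an adaptor that brings in the decay machinery, fell by 2.29 (SE 0.126, adjusted p = 0.00038). UPF1, the helicase of the pathway, fell by 1.68 (SE 0.153, adjusted p = 0.000739), from 38.4 ± 3.26 to 11.4 ± 1.55 FPKM. The members of this list thus did not move in 1 direction. Any part of the NMD factors in the host levels was not tested.

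Of 17 proteins that build or form snoRNA particles, 7 rose and 3 fell, with a median of 0.21. NOP58, a core protein of C/D particles, had the largest difference, 4.46 (SE 0.313, adjusted p = 0.000481), with 102 ± 7.42 FPKM on day 30 and 4.29 ± 3.08 on day 4. ZNHIT6, an assembly factor, rose by 1.74 (SE 0.275, adjusted p = 0.00338). The assembly helicases RUVBL2 and RUVBL1 fell by 0.91 and 0.90 (SE 0.160 and 0.096, adjusted p = 0.00489 and 0.00102). Among 8 genes of the mTOR pathway and its translation targets, which govern mRNAs with a pyrimidine start, EIF4E rose by 1.66 (SE 0.309, adjusted p = 0.00614) and RPS6KB1 by 1.30 (SE 0.195, adjusted p = 0.00283), RPTOR fell by 1.19 (SE 0.137, adjusted p = 0.00128), and the other 5 did not pass the test. That balance depended on the GC trend, as given below. The median of that list was -0.28.

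GC content moved with the day difference over the whole table. Across 10081 expressed genes matched to an annotated transcript, Spearman's rho between GC content and the day difference was -0.68, as a description across genes of the same 8 libraries. With the genes cut into 5 equal groups, from the group with the lowest GC content to that with the highest, the median difference went from 1.34 to -0.74, and the share called higher on day 30 from 78.2% to 5.41%. The transcripts of the hosts ranged in GC content from 36.3% (SNHG6) to 59.8% (SNHG7). Set against the genes of their own GC group, SNHG8 lay at percentile 99.6 of the day difference, SNHG12 at 99.0, SNHG7 at 98.1, SNHG1 at 96.3, SNHG5 at 94.4, GAS5 at 90.6, SNHG6 at 78.0 and SNHG3 at 33.9.

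When the trend with GC content was subtracted from each library, SNHG8 differed between the days by 2.96 (SE 0.159, adjusted p = 0.000147), SNHG12 by 2.68 (SE 0.160, adjusted p = 0.000173), SNHG7 by 1.99 (SE 0.104, adjusted p = 0.000143) and SNHG5 by 1.86 (SE 0.145, adjusted p = 0.000314). SNHG1 differed by 1.63 (SE 0.107, adjusted p = 0.000201) and GAS5 by 1.33 (SE 0.284, adjusted p = 0.00918). SNHG6, the host with the lowest GC content, was left with 0.39 (SE 0.165, adjusted p = 0.0896) and no longer passed. When GC content and transcript length were subtracted together, an alternative chosen after seeing the data, SNHG6 was at -0.02 (adjusted p = 0.895), while the other 6 kept differences of 0.98 (GAS5) to 2.56 (SNHG8). The value also depended on the isoform taken for GC content. With the annotation's canonical transcripts, also chosen after seeing the data, SNHG6 (40.4% GC in place of 36.3%) was at 0.85 (adjusted p = 0.00738). SNHG8 (39.0% in place of 49.3%) was then at 1.63 (adjusted p = 0.000446), below SNHG12 at 3.02, and all 7 calls stood. Without the GC trend, the median of the 8 hosts was 1.75. The 9 other noncoding hosts had a median of 0.55, with 6 higher and 0 lower on day 30. The protein-coding hosts had 0.56 (20 higher, 2 lower), the NMD factors -0.44 (3 and 5), the snoRNA particle proteins 0.32 (6 and 3) and the mTOR list -0.10 (1 and 3). Of the 10081 expressed genes with a GC content, 2859 were then called higher and 2808 lower on day 30.

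When the DMSO libraries or those of any inhibitor were left out on both days, all 7 calls held. The lowest of the resulting differences was 1.15 (SNHG7) and the highest adjusted p among the 7 was 0.00836. Within the DMSO libraries alone, 1 against 1, the day 30 level was 2.80-fold higher for GAS5, 5.07-fold for SNHG1, 4.03-fold for SNHG5, 3.11-fold for SNHG6, 2.52-fold for SNHG7, 6.87-fold for SNHG8 and 7.42-fold for SNHG12, and 0.891-fold for SNHG3, all on FPKM + 1.

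Most hosts followed the same profile over the libraries. Pearson's r with the mean profile of the 8 genes over 8 libraries was 0.971 to 0.998 for 7 hosts and 0.467 for SNHG3. Each host is itself part of that mean, so a high r is partly built in. By the same measure the 5 most similar genes of 5130 candidates with a mean of at least 10 FPKM were PIN4 (0.998), HSBP1L1, ERH, RPS6 and NDUFV2 (each 0.997 or 0.998). A total of 477 candidates had an r over 0.95, so a like profile was common. The points of such a correlation fall in 2 clusters, the days.

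The second question was whether LSD1 inhibition moved the hosts. Over both days, no host passed an adjusted p of 0.05 by limma for the mean of the 3 inhibitors against DMSO. Of all expressed genes, 0.0276% passed. At an unadjusted p under 0.05 there was 1 host, GAS5, against 0.341% of expressed genes. GAS5 was 0.44 lower with the inhibitors on the log2 scale, with an interval of -0.86 to -0.02 and an adjusted p of 1.0. For the other 7 hosts the estimates lay between -0.19 (SNHG7) and 0.08 (SNHG12), and the intervals reached from -0.54 (SNHG6) to 0.64 (SNHG12). Differences of that size were therefore not excluded by 2 libraries per treatment.

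Taken singly, none of the 3 inhibitors gave a call among the 8 hosts against DMSO by limma, with p-values adjusted over all genes and the 3 inhibitors. The shares of all expressed genes called were 0.0276% for NCD38, 0.0184% for NCD38-β2P4 and 0.0184% for NCD38-β2PIPP. Unadjusted p-values under 0.05 were found for 2 hosts with NCD38 and for none with either conjugate, against 1.33%, 0.295% and 0.571% of expressed genes. With NCD38, GAS5 had a difference of -0.65 (SE 0.205, adjusted p = 1.0) and SNHG8 of -0.52 (SE 0.130, adjusted p = 1.0). With the GC trend subtracted these were -0.37 and -0.30.

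Within a day, 1 library was set against 1, so no test was possible, and a ratio of FPKM + 1 past 2-fold was counted. No host passed 2-fold in any of the 6 comparisons. On day 30, 1.66% of expressed genes did so with NCD38, 1.0% under NCD38-β2P4 and 1.17% under NCD38-β2PIPP. On day 4 the shares were 5.41%, 1.91% and 11.2%.

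NCD38 gave values below DMSO for 7 of the 8 hosts on each day. On day 30, 40.0% of expressed genes were lower with NCD38, and on day 4, 67.3%. The median log2 ratio of the hosts was -0.25 on day 30, where that of all expressed genes was 0.06, and -0.55 on day 4, where that of all genes was -0.21. GAS5 was lower by a like amount on both days, with log2 ratios of -0.64 and -0.67. It was the 1 host lower by at least 1.5-fold on both days, which 0.249% of expressed genes were. SNHG8 was at -0.46 and -0.57, whereas SNHG1 was at -0.04 on day 30 and -0.54 on day 4, and SNHG6 at -0.08 and -0.72. In all, 6 hosts were lower on both days, against 23.2% of expressed genes. After rescaling each library by its median, 7 hosts stayed below DMSO on day 30 but 5 on day 4, where SNHG7 (0.19) and SNHG3 (0.09) turned higher and GAS5 was at -0.33. With the GC trend subtracted, 4 hosts were lower on day 4 and GAS5 was at -0.04 there, against -0.71 on day 30. The share of all expressed genes below DMSO was not counted under either of these scalings.

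SNHG3 went the other way on day 30. With NCD38 it was at 78.7 FPKM against 54.6 with DMSO, a log2 ratio of 0.52, while on day 4 the ratio was -0.25. SNHG12 had no difference with NCD38 on day 4 (4.57 against 4.56 FPKM) and a ratio of -0.33 on day 30.

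**Figure D2:**
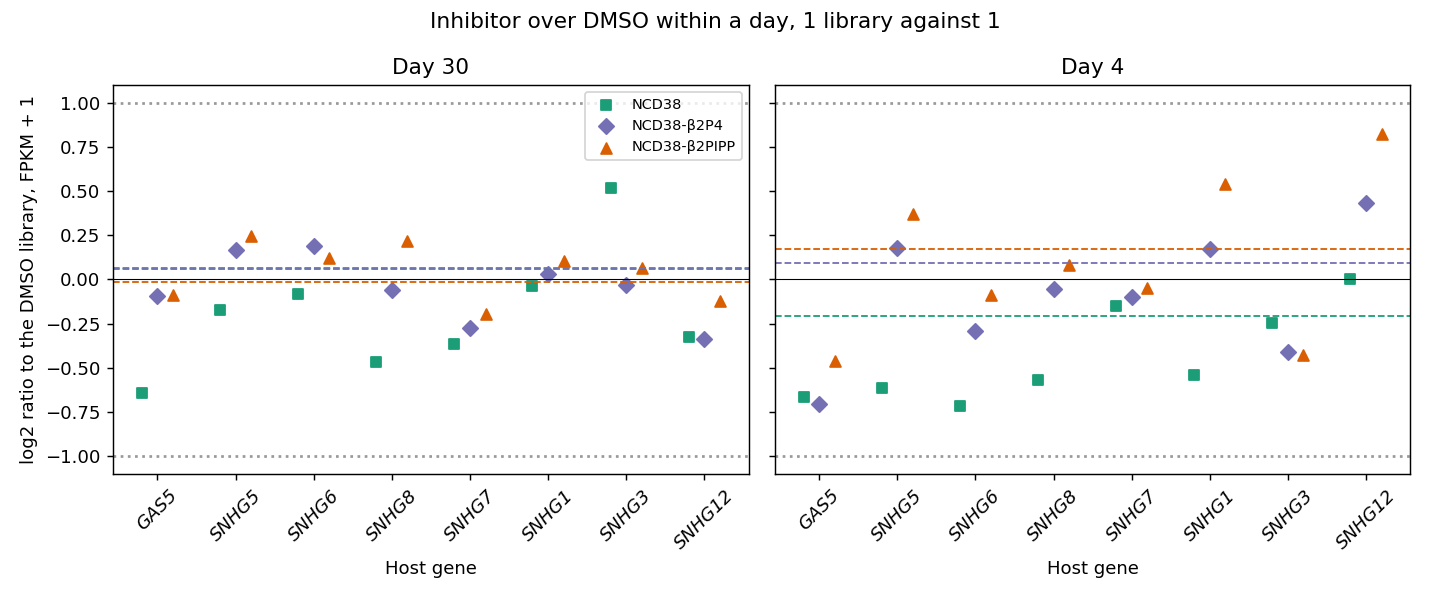
Log2 ratio of FPKM + 1 of each inhibitor library to the DMSO library of the same day for the 8 hosts, with dashed lines at the median of all expressed genes in the colour of each inhibitor and dotted lines at 2-fold. No point reaches 2-fold, and the squares of NCD38 lie below 0 for 7 hosts on each day.

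With NCD38-β2P4, 3 hosts were above DMSO on each day, against 62.1% of expressed genes on day 30 and 65.0% on day 4. The log2 ratios ran from -0.34 (SNHG12) to 0.19 (SNHG6) on day 30 and from -0.70 (GAS5) to 0.44 (SNHG12) on day 4. With NCD38-β2PIPP, 5 hosts were above DMSO on day 30 and 4 on day 4, against 46.2% and 63.6% of expressed genes. Those ratios ran from -0.19 (SNHG7) to 0.24 (SNHG5) and from -0.46 (GAS5) to 0.82 (SNHG12). Rescaled by the median, the hosts above DMSO numbered 2 and 3 with NCD38-β2P4 and 5 and 3 with NCD38-β2PIPP (day 30 and day 4). With the GC trend subtracted they numbered 1 and 1, and 5 and 2. The share of all expressed genes above DMSO was not counted under either scaling, and the shares above do not apply to it. GAS5 was below DMSO with every inhibitor on both days, also after rescaling and with the GC trend subtracted. The smallest of these ratios was -0.041, with NCD38 on day 4 and the GC trend subtracted. The ratios of a day share 1 DMSO library, so their signs are not independent. The share of expressed genes below DMSO in every comparison was not counted.

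The last comparison set the 3 inhibitors against each other at the same dose and days, in 3 pairs, with p-values adjusted over all genes and pairs. No host was called in any pair by limma, and the lowest adjusted p was 0.865. The shares of expressed genes called were 0.0092% for NCD38-β2P4 against NCD38, 0.0184% for NCD38-β2PIPP against NCD38 and 0.0276% for the pair of conjugates. At an unadjusted p under 0.05 the numbers of hosts were 2, 2 and 0, and the shares of expressed genes 3.24%, 6.37% and 0.313%.

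Against NCD38, the conjugate with the pyrrole run was higher for SNHG5 by 0.57 (interval 0.11 to 1.03) and for SNHG8 by 0.46 (interval 0.13 to 0.78) before adjustment. NCD38-β2PIPP was higher than NCD38 by 0.70 for SNHG5 (interval 0.24 to 1.16) and by 0.67 for SNHG8 (interval 0.34 to 0.99). These estimates depended on the scaling. Against NCD38, the pyrrole conjugate was at 0.35 for SNHG5 and 0.24 for SNHG8 after rescaling by the median, and at 0.11 and 0.13 with the GC trend subtracted. NCD38-β2PIPP was at 0.44 and 0.41 after rescaling, and at 0.19 and 0.30 with the GC trend subtracted. SNHG1 was close to the limit of an unadjusted call, at 0.61 (interval 0.00 to 1.22), but at 0.35 after rescaling and 0.02 with the GC trend subtracted. For GAS5 the estimates were 0.26 (interval -0.26 to 0.77) and 0.38 (interval -0.13 to 0.89), and they turned to -0.25 and -0.17 with the GC trend subtracted. SNHG3 was lower with both conjugates, at -0.36 (interval -0.89 to 0.17) and -0.32 (interval -0.85 to 0.21), and at -0.81 and -0.83 with the GC trend subtracted, where it was not called either. Both comparisons use the same NCD38 libraries. Taken by day, NCD38-β2P4 was above NCD38 on both days for 5 hosts, against 34.8% of expressed genes, and NCD38-β2PIPP for 7, all but SNHG3, against 22.4%. After rescaling by the median these were 4 and 5 hosts (22.8% and 15.5% of expressed genes), and with the GC trend subtracted 1 and 2 (20% and 18.1%).

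By day, NCD38-β2P4 was above NCD38 for 6 hosts on day 30, where 51.7% of expressed genes were, and for 6 on day 4, where 66.7% were. NCD38-β2PIPP was above it for 7 hosts on each day, against 39.5% and 66.4%. The median log2 ratio of the hosts was 0.18 and 0.21 for the 2 conjugates on day 30 (all genes 0.01 and -0.07) and 0.43 and 0.64 on day 4 (all genes 0.30 and 0.45). The widest single ratio was that of SNHG1 with NCD38-β2PIPP on day 4, 1.08.

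The conjugates, which differ in 1 ring of the polyamide, were not told apart at any host. Their differences, NCD38-β2P4 minus NCD38-β2PIPP, ran from -0.30 (SNHG12, interval -0.99 to 0.39) to -0.04 (SNHG3, interval -0.57 to 0.49). The narrowest intervals were those of SNHG7, -0.40 to 0.27, and SNHG8, -0.53 to 0.12. Effects up to those bounds were not excluded.

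On GRCh37, the build of the deposited table, GENCODE release 44 places the transcripts used here at chr1:173832948-173837133 (GAS5, 12 exons), chr11:62619460-62623358 (SNHG1, 10 exons), chr1:28832492-28837404 (SNHG3, 3 exons), chr6:86386725-86388466 (SNHG5, 4 exons), chr8:67834253-67838633 (SNHG6, 4 exons), chr9:139618885-139622630 (SNHG7, 4 exons), chr4:119199913-119200978 (SNHG8, 4 exons) and chr1:28905050-28908385 (SNHG12, 5 exons). SNHG3 and SNHG8 are on the plus strand and the others on the minus strand. Their spliced lengths were 479 nt (SNHG6) to 2201 nt (SNHG3), and GENCODE lists 91 isoforms for GAS5 against 3 for SNHG3. Genes on the opposite strand that overlap a host include those at GAS5 (ZBTB37 and GAS5-AS1), SNHG6 (MCMDC2), SNHG7 (DIPK1B), SNHG8 (PRSS12) and SNHG12 (TRNAU1AP). The kit marks strand, but whether the counting used it is not given in the sources used here. TRNAU1AP was at 11.1 to 18.7 FPKM and so above SNHG12 on day 4. It ends at 28905057, however, and SNHG12 begins at 28905050, so they share only a few bases. PRSS12 was at 0.788 to 1.95 FPKM. It begins at 119201193, beyond the end of the SNHG8 transcript used here.

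The snoRNAs themselves are short and carry no poly(A) tail, and the libraries were made from mRNA. Of the snoRNAs carried by the 8 hosts, 30 are listed in the table, of which 11 were under 0.01 FPKM in all 8 libraries, 15 in some and 4 in none. The 4 entries above that limit throughout were SNORA61, in SNHG12, at 136 to 193 FPKM on day 30 and 19.4 to 79.7 on day 4, RNU105A, matched to SNORA73B in SNHG3, at 125 to 254 and 11.9 to 67.0, SNORA24, in SNHG8, at 22.3 to 36.4 and 9.40 to 24.8, and SNORA73A, in SNHG3, at 15.7 to 36.6 and 18.5 to 34.4. The days overlapped for SNORA24 and SNORA73A. An entry at 0 can be a failed estimate, so these values were not tested.

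The sum of FPKM was 677739 to 822230 per library. The table holds no counts, and from the FPKM of single fragments the depth came to about 12300000 to 22400000 fragments, an approximation that rests on annotated lengths. Of the markers set for colorectal epithelium, KRT18 was at 76.2 to 121 FPKM, KRT8 at 6.58 to 19.0, CDX2 at 7.49 to 11.6 and EPCAM at 0.092 to 6.54. KRT19 and CDH1 were at or under 0.467 FPKM, and VIL1 and LGR5 were listed at 0 in all libraries. PTPRC, PECAM1 and DCN, markers of blood, vessel and stromal cells, were listed at 0, and COL1A1 and ALB were at or under 0.0591 FPKM.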

How the data were processed

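The authors prepared libraries with a stranded mRNA kit, and the study's methods name TopHat for alignment and Cufflinks for expression. The submitters' processing notes list HISAT2 2.2.1.0 and Cufflinks among the tools, and hg19 as the build. The deposited values are FPKM per gene and library, without counts. ChIP samples were not analysed here.

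The table holds 25594 entries, of which 90 with a repeated name were dropped. Genes with a mean FPKM of at least 1 were tested on log2(FPKM + 1) with limma 3.58.1 (trend) in R 4.3.3, with terms for treatment and day, 3 residual and 5.51 total degrees of freedom, Benjamini-Hochberg adjustment and a threshold of 0.05. With 1 library a condition, the error is the disagreement of treatments between days, so a treatment that acts on 1 day alone adds to it. Other steps used Python 3.11.15 and pandas 2.3.3. Symbols were matched to GENCODE on GRCh37 for 92.8% of expressed genes. For noncoding genes the isoform of median length gave length and GC content, since canonical ones were long. The GC trend is the median deviation from the gene's mean in 20 bins of GC content, subtracted per library. The scripts were tested on simulated data.

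The members and gene lists were chosen with earlier results of these data known. All 8 members are named, and from other lists the 2 largest and 2 smallest day differences past the threshold. In the mTOR list, where 3 genes passed, RPS6KB1 came under both. The 5 most similar genes were picked by Pearson's r with listed genes left out. Alternatives changed the pseudocount (0.1), the filter, the scaling, the GC trend and the least length of a gene's longest isoform (500 nt). They also changed limma's trend, the treatment term, the libraries, the DMSO comparator and the fold (1.5). Another 4 were added after seeing the data: GC content of canonical transcripts, GC content with length (10 by 4 bins), the conjugates only, and the counts of members above NCD38 under rescaling and the GC trend.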

Additional observations from a re-analysis of the deposited data

Results flagged for a closer look

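Among 16 groups of 4 libraries (8 hosts, 2 days), 1 held a library past Dixon's limit for its gap to the others. SNHG3 with NCD38 on day 30, at 78.7 FPKM, stood above the next library, at 57.2 FPKM, by 0.849 of the whole range of its group. Chance marks about 1 in 20 such groups.

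Of 24 pairs of host and inhibitor, 4 had log2 ratios to DMSO of opposite sign on the 2 days, each beyond an approximate counting error. The difference between days was not tested, since each ratio rests on 1 library against 1. SNHG3 with NCD38 was at 0.52 on day 30 and at -0.25 on day 4, but the signs were alike after rescaling by the median (0.49 and 0.09) and with the GC trend subtracted (0.42 and 0.40). SNHG6 with NCD38-β2P4 was at 0.19 and -0.29. Its signs stayed opposite after rescaling (0.14 and -0.37), but both were below 0 with the GC trend subtracted (-0.046 and -0.55). With NCD38-β2PIPP it was at 0.12 and -0.088, against a counting error of 0.085 on day 4. Those signs stayed opposite after rescaling (0.11 and -0.29) and with the GC trend subtracted (0.097 and -0.74). SNHG12 with NCD38-β2P4 was at -0.34 and 0.44, and its day 4 value likewise barely exceeded its counting error of 0.42. Its signs stayed opposite after rescaling (-0.39 and 0.36) and with the GC trend subtracted (-0.40 and 0.38). In both, the day 4 value was below that error.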

How the results depend on the processing

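A total of 1015 values were computed under 16 alternatives. The host calls between days were recomputed under 14 of these, and the 7 calls stayed except that SNHG6 was lost with the GC trend subtracted (0.39, adjusted p = 0.0896) and with GC content and length subtracted (-0.024, adjusted p = 0.895), each leaving 6 calls. No host was called under the 9 alternatives run for the inhibitors or the 10 run for the pairs. Leaving out the libraries of a treatment moved no host count; the lowest and highest counts of genes called were 0 and 4 for the inhibitors together (3 with all libraries), 0 and 8 for each inhibitor (7) and 0 and 2 for the pairs (6). Without a filter 1 gene was called for the inhibitors together and 0 for the pairs. With rescaling 5 were called for the inhibitors together, and with the GC trend subtracted 1 and, for each inhibitor, 4. With genes kept if their longest annotated isoform had at least 500 nt, 0 were called for each of the 3. SNHG6 and SNHG8, with 479 and 489 nt in the transcripts used here, stayed in that setting through longer isoforms. Of 48 ratios within a day, 0 passed 2-fold, 1 with the GC trend subtracted (GAS5 with NCD38-β2PIPP on day 4, a log2 ratio of -1.02), 6 passed 1.5-fold, and 40 passed 2-fold when DMSO was taken from the other day, a comparison that also holds the day. Hosts lower with NCD38 than with DMSO numbered 7 on each day, 4 on day 4 with the GC trend subtracted, and 0 on day 30 against the DMSO library of day 4. The cause was not tested. For these ratios and host counts, the share of all expressed genes was not counted under the alternatives. Replicates could not be paired, because the labels carry no replicate numbers and no condition was repeated. Treatment was a term of every test but 1, so the days were there compared within each treatment. Depth is known only approximately, so counting errors are too. At 4.56 to 8.83 FPKM, SNHG12 on day 4 is the host they limit most.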
